A study of Mus musculus with 8 samples.

Results

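Tetraspanins are small membrane proteins that cross the membrane 4 times and gather other membrane proteins around them. All genes of the count table that are protein-coding and named *Tspan* plus a number, together with *Cd9*, *Cd37*, *Cd53*, *Cd63*, *Cd81*, *Cd82*, *Cd151*, *Upk1a*, *Upk1b*, *Prph2* and *Rom1*, were taken, which gave 31 of 54532 genes. The rule used names alone. The libraries came from bone marrow of C57BL/6 mice aged 8 to 12 weeks that carried floxed *Zeb1* (Zeb1 fl/fl) and the Mx1-Cre transgene, a recombinase switched on by the interferon response to pIpC, and cells were taken 14 days after the last dose. LSK cells, the lineage-negative c-Kit+ Sca-1+ compartment that holds hematopoietic stem and early progenitor cells, were sorted into *Zeb1-/-* EpCAM+ and *Zeb1-/-* EpCAM- fractions, with 4 RNA-Seq libraries from each, from 4 mice as the labels state it. Both fractions had been through the deletion and the pIpC treatment, and Mx1-Cre is active in many cell types beside hematopoietic stem cells, so the comparison is between fractions of deleted marrow and not between deleted and control mice.

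A tetraspanin binds a small set of primary partners, among them laminin-binding integrins, immunoglobulin superfamily proteins and the metalloprotease ADAM10, and it binds other tetraspanins, which links the partners into membrane microdomains. EpCAM, the homotypic adhesion molecule used for this sort, is itself found in such microdomains with CD9, TSPAN8 and claudin-7 in epithelial and tumor cells. In blood cells, family members are known in B cell and T cell coreceptor complexes, in platelet adhesion, in lysosome-related granules and exosomes, and in the homing and quiescence of stem cells.

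Library totals were 14114491 to 17073546 counts, of similar size in both fractions. Levels are given in CPM, the counts scaled to a common library size by edgeR's TMM method, and fold changes come from the same scaling. *Epcam*, the sorting marker, was at 234, 161, 171 and 183 CPM in EpCAM+ and at 8.99, 3.77, 1.43 and 1.25 CPM in EpCAM- libraries, a log2 fold change of 5.56 (SE 0.47, adjusted p = 0.000121). *Zeb1* was still read in both fractions, at 14.8 to 23.7 CPM in EpCAM+ and 9.49 to 14.0 CPM in EpCAM- libraries (0.72, SE 0.17, adjusted p = 0.00798), and a count per gene cannot show which of its transcripts came from an excised allele. EpCAM+ replicate 1 stood apart from the other EpCAM+ libraries, with a chi-square of counts per degree of freedom of 71 to 91.7 against each of them and 15.5 to 38.9 among the others. The same 14 tetraspanins were called without it.

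Of the 31 tetraspanins, 22 had enough reads to be tested and 14 differed between the fractions. Expression was higher in EpCAM+ LSKs for 9 of them, *Cd9*, *Tspan9*, *Tspan13*, *Tspan4*, *Tspan14*, *Tspan3*, *Cd63*, *Tspan6* and *Tspan32*, and lower for 5, *Tspan8*, *Tspan15*, *Tspan33*, *Tspan2* and *Tspan31* (edgeR quasi-likelihood test, Benjamini-Hochberg adjusted over 13560 genes, threshold 0.05). The 9 higher members are 40.9% of those tested and the 5 lower members 22.7%, while over all genes tested 21.8% were higher and 20.8% lower, 42.6% in all. In a fit of protein-coding genes alone, 23.2% of genes were higher and 22.9% lower, 46.1% in all. In the fit of all genes, higher genes were 51.2% of all calls, a share that became 63.6% with upper quartile scaling and 62.7% with library totals, where 11 members were higher and 4 lower. The median log2 fold change, EpCAM+ minus EpCAM-, was 0.13 over the tested members and 0.02 over all tested genes. The rises were small, with 8 of the 9 below 1 on the log2 scale and *Tspan9* above it, whereas 3 of the 5 falls, those of *Tspan8*, *Tspan15* and *Tspan33*, were larger than 2-fold. Calls beyond 2-fold were 1 higher and 3 lower, 4 of 22, beside 12% of all tested genes (9.15% higher and 2.81% lower). The libraries of the fractions did not overlap for 11 members, 7 above and 4 below, and this separation was seen for 40.1% of all tested genes (20.1% above and 20% below).

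**Figure D1:**
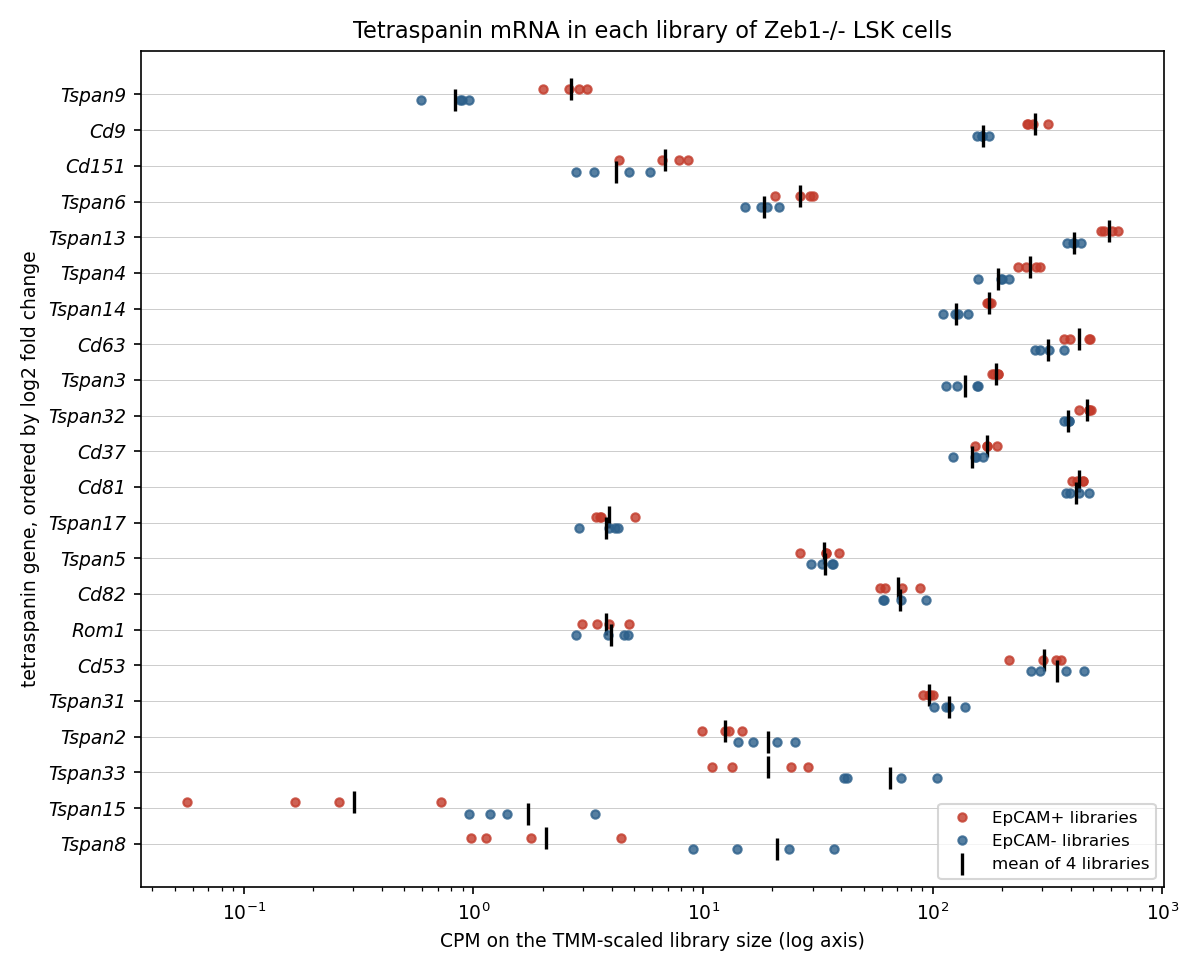
Levels of the tested tetraspanins in every library, in CPM on a log10 axis, with EpCAM+ libraries and EpCAM- libraries as separate points and a black line at the mean of 4. *Tspan8*, *Tspan15* and *Tspan33* lie lower in all 4 EpCAM+ libraries, and *Cd9* and *Tspan9* lie higher in all 4.

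The summed level of the 31 genes was 3507 to 3668 CPM in EpCAM+ libraries and 2920 to 3111 CPM in EpCAM- libraries, so every EpCAM+ library was above every EpCAM- library. There were 8 members that were tested and not called, and 9 did not pass the filter on low counts. *Tspan9* and *Tspan15* reached the filter's level in all 4 libraries of 1 fraction only, the one in which each was higher, so their passing was not independent of the difference.

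Markers of other cell types moved with the fractions, and their part in the tetraspanin values was not tested. The 10 markers of the LSK gate and of stem or progenitor cells were all tested and 8 were higher in EpCAM+ LSKs, *Kit* and *Ly6a* among them, with a summed level of 2644 to 2840 CPM against 1403 to 2190 CPM. Erythroid markers summed to 52.4 to 240 CPM in EpCAM+ and 1905 to 6627 CPM in EpCAM- libraries (5 of 8 tested lower, *Hbb-bt* higher). Neutrophil and monocyte markers summed to 819 to 1383 against 10091 to 16481 CPM (4 of 10 lower). Mast cell and basophil markers summed to 268 to 296 against 453 to 770 CPM (4 of 7 lower). Few genes made up most of the neutrophil and erythroid sums. In EpCAM- libraries the means were 10435 CPM for *Mpo*, 1836 CPM for *Elane* and 3443 CPM for the erythroid *Car1*. The neutrophil and monocyte markers *S100a8*, *S100a9*, *Camp*, *Ltf*, *Itgam* and *Ly6c2* were not called. The sum of the plasma cell markers was higher in EpCAM+ LSKs, at 3972 CPM in EpCAM+ replicate 1, where *Jchain* was at 3525 CPM. The other EpCAM+ libraries were at 386 to 670 CPM against 169 to 256 CPM (3 of 5 higher). Dendritic cell markers summed to 517 to 864 against 328 to 500 CPM (6 of 9 higher), with *Flt3* at a mean of 366 CPM in EpCAM+ libraries. Epithelial markers summed to 203 to 254 against 79.2 to 105 CPM (4 of 4 higher, with *Krt19*, *Krt5* and *Grhl2* at 0). *Krt18* had a mean of 177 CPM in EpCAM+ libraries. Ranges overlapped for B cell markers at 77.2 to 127 against 49.3 to 84.2 CPM (2 of 5 higher, *Pax5* at 0), T and NK cell markers at 636 to 798 against 686 to 886 CPM (1 of 2 higher), eosinophil markers at 7.48 to 56.1 against 26.5 to 80.1 CPM (1 of 5 lower), and endothelial and stromal markers at 68.1 to 76.4 against 64.7 to 82.0 CPM (1 of 3 higher, *Col1a1* at 0). Nearly all of the T and NK cell sum was *Nkg7*, which was not called, with means of 730 CPM in EpCAM+ and 797 CPM in EpCAM- libraries. Of that list 8 genes were not tested, and *Cd3e* had at most 1 count and *Cd8a* at most 4 in a library.

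The regulator deleted here, ZEB1, is a zinc finger repressor that binds E-boxes of the form CAGGTG in its target promoters. The windows from 250 bases before to 50 bases after the RefSeq start sites were searched for CAGGTG on both strands (CACCTG on the other), for the related CAGGTA, which reads TACCTG on the opposite strand, and for the general E-box CANNTG, which contains CAGGTG. RefSeq windows (GRCm38.p6) were found for 29 of the 31 members, 39 windows in all, with none for *Tspan18* and *Upk1b*. CAGGTG was present in 10 of the 39 windows, 25.6%, and in 20.2% of the 32851 windows of all genes. The windows with it belonged to *Cd9* and *Tspan4*, which were higher, to *Tspan15* and *Tspan33*, which were lower, to *Cd151*, *Cd37* and *Cd82*, which were not called, and to *Tspan1*, which was not tested. CAGGTA stood in 4 of 39 windows, 10.3% against 12% of all, and CANNTG in 27 of 39, 69.2% against 72.3% of all. These shares are a description and were not tested, and a match marks letters and not a bound site.

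The windows of 5 members with clear differences are printed with that of *Epcam*, in the direction of transcription and in lower case, with CAGGTG or CACCTG in capitals, because they let the position of the E-box be compared between members that moved in opposite directions. The *Cd9* window (chr6:125494711-125495010, minus strand) holds CAGGTG at bases 178 to 183, before the start site. The *Tspan33* window (chr6:29693964-29694263, plus strand) holds it at bases 97 to 102, and the *Tspan15* window (chr10:62231169-62231468, minus strand) at bases 292 to 297, past the start site. The *Tspan8* window (chr10:115817034-115817333, plus strand) and the *Tspan13* window (chr12:36042429-36042728, minus strand) hold neither form. The *Epcam* window (chr17:87635729-87636028, plus strand) holds CACCTG at bases 64 to 69 and CAGGTG at bases 232 to 237.

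Cd9: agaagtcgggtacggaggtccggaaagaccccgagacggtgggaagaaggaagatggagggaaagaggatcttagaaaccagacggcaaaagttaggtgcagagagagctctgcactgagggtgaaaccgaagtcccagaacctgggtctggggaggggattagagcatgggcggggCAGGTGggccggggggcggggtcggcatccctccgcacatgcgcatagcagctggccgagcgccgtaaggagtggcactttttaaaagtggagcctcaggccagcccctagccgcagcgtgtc

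Tspan33: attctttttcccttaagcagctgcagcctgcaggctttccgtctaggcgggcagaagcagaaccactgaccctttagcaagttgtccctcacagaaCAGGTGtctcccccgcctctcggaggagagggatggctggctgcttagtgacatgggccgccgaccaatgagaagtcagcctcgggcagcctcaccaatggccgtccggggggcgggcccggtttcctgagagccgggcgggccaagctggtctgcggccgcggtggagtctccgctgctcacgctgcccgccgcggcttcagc

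Tspan15: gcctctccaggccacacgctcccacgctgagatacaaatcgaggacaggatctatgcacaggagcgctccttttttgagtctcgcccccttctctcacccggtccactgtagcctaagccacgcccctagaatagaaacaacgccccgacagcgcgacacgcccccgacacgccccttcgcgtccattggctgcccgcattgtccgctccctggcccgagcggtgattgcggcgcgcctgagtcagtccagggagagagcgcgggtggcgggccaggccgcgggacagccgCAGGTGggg

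Tspan8: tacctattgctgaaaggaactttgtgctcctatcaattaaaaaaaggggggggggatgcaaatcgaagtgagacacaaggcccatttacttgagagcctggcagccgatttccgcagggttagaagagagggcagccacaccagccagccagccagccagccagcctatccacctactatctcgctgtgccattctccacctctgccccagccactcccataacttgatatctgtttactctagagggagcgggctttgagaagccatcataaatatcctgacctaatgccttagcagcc

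Tspan13: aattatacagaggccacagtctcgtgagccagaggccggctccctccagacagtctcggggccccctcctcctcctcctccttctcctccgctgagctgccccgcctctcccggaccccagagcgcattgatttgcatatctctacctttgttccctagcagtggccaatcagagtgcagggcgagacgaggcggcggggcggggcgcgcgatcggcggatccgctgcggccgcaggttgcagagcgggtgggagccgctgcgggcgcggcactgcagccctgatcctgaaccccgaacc

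Epcam: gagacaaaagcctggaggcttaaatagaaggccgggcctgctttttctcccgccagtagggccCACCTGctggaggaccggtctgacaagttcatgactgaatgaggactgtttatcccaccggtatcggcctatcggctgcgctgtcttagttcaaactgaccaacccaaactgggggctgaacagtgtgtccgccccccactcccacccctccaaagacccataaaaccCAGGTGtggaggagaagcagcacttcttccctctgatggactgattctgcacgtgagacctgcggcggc

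The 6 members that associate with integrins or EpCAM moved in different directions. *Cd9* and *Tspan4* rose, *Tspan8* fell 10.1-fold, and *Cd81*, *Cd82* and *Cd151* were not called. CD9 joins EpCAM, claudins and beta1 integrins and is known for its part in cell fusion and in platelets and stem cells. *Cd9* (ENSMUSG00000030342, chr6:125460266-125494791) was at 274, 258, 259 and 319 CPM in EpCAM+ libraries 1 to 4 and at 176, 164, 156 and 164 CPM in EpCAM- libraries 1 to 4. The fractions did not overlap and the spread within each was small, with means of 277 ± 28.4 and 165 ± 8.13 CPM (SD, n = 4). This is a 1.68-fold rise, 0.75 on the log2 scale (SE 0.08, 95% confidence interval 0.56 to 0.93, adjusted p = 0.000223), the smallest adjusted p among the tetraspanins. Its exons share 218 bases, 10.7% of them, with the predicted gene *Gm26728* on the opposite strand.

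*Tspan8* (ENSMUSG00000034127, chr10:115816832-115849893) encodes the tetraspanin found with EpCAM, claudin-7 and CD44 on metastatic carcinoma cells. It had 15, 20, 32 and 68 counts in EpCAM+ libraries 1 to 4, or 0.981, 1.13, 1.79 and 4.41 CPM. In EpCAM- libraries 1 to 4 it had 145, 190, 347 and 504 counts, or 9.05, 14.1, 23.7 and 37.1 CPM. Every EpCAM+ library was below every EpCAM- library, with replicate 4 the highest in both fractions. The log2 fold change was -3.34 (SE 0.54, 95% confidence interval -4.53 to -2.15, adjusted p = 0.00109). It ranged from -3.99 without EpCAM+ replicate 4 to -2.92 without EpCAM- replicate 4, and passed the threshold whichever library was left out. *Tspan8* was the only member that passed a test against a 2-fold change, which 4.29% of all tested genes passed.

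*Tspan4* (ENSMUSG00000025511, chr7:141475240-141493427), whose protein builds migrasomes on migrating cells, was at 256, 282, 293 and 235 CPM in EpCAM+ and at 200, 214, 198 and 157 CPM in EpCAM- libraries. The fractions did not overlap, and the rise was 0.47 on the log2 scale (SE 0.11, adjusted p = 0.00595). Its exons share 292 bases, 13.4% of them, with *Chid1* on the opposite strand, and *Chid1* fell by 0.64 on the log2 scale (SE 0.12, adjusted p = 0.00209). The strand setting of the counting is not given in the sources used here, so reads from such shared bases cannot be told apart.

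*Cd151* (ENSMUSG00000025510), the closest partner of the laminin-binding integrins, was at 6.60, 7.88, 4.30 and 8.62 CPM in EpCAM+ and at 2.81, 4.74, 3.34 and 5.88 CPM in EpCAM- libraries. It was higher in the EpCAM+ library of all 4 pairs, but the fractions overlapped and the log2 difference of 0.71 (SE 0.28) missed the threshold (adjusted p = 0.0653). A fit that blocked on replicate number called it at 0.72 (adjusted p = 0.0141). *Cd81* (ENSMUSG00000037706), known as a hepatitis C virus receptor, was at 453, 403, 452 and 425 CPM in EpCAM+ and at 396, 379, 435 and 477 CPM in EpCAM- libraries. Its log2 difference was 0.04 with a 95% confidence interval of -0.15 to 0.23 (adjusted p = 0.739). *Cd82* (ENSMUSG00000027215), a suppressor of metastasis that also holds stem cells in quiescence, was at 70.5 ± 13.1 CPM in EpCAM+ and 72.1 ± 15.3 CPM in EpCAM- libraries (SD, n = 4), a log2 difference of -0.03 with an interval of -0.39 to 0.32 (adjusted p = 0.888). Differences smaller than these intervals were not detectable here.

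Both tetraspanins of lysosomes and exosomes rose, by 1.37-fold and 1.44-fold, beside 21.8% of all tested genes called higher. CD63 sits in late endosomes, lysosomes and granules and travels on exosomes. *Cd63* (ENSMUSG00000025351, chr10:128900989-128912822) was at 372, 483, 480 and 398 CPM in EpCAM+ and at 372, 292, 321 and 279 CPM in EpCAM- libraries, so replicate 1 showed no difference and the other 3 pairs were higher in EpCAM+. The log2 fold change was 0.46 (SE 0.12, adjusted p = 0.0110). *Tspan6* (ENSMUSG00000067377, chrX:133891068-133898429), which acts in endosomal sorting to exosomes, was at 20.5, 26.4, 29.1 and 30.02 CPM in EpCAM+ and at 15.3, 21.3, 19.0 and 17.9 CPM in EpCAM- libraries. It was higher in 4 of 4 pairs with a small overlap between fractions, by 0.53 on the log2 scale (SE 0.14, adjusted p = 0.0140).

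Of the 3 leukocyte tetraspanins, *Tspan32* rose, and *Cd37* and *Cd53* were not called. *Tspan32* (ENSMUSG00000000244, chr7:143005046-143019644), which restrains T cell proliferation and platelet integrin signaling, was at 434, 491, 479 and 478 CPM in EpCAM+ and at 392.4, 372, 393 and 388 CPM in EpCAM- libraries. The fractions did not overlap, with means of 470 ± 25.1 and 386 ± 9.73 CPM (SD, n = 4), and the rise was 0.28 on the log2 scale (SE 0.07, adjusted p = 0.00755), the smallest of the 9. *Cd37* (ENSMUSG00000030798), a regulator of B cell survival and dendritic cell migration, was at 191, 153, 173 and 172 CPM in EpCAM+ and at 165, 152, 154 and 123 CPM in EpCAM- libraries. It was higher in all 4 pairs by 0.21 on the log2 scale (SE 0.10, adjusted p = 0.115), and the fit that blocked on replicate number called it at 0.22 (adjusted p = 0.0469). *Cd53* (ENSMUSG00000040747), a pan-leukocyte tetraspanin that stabilises L-selectin and other leukocyte receptors, was at 345, 301, 215 and 363 CPM in EpCAM+ and at 380, 456, 292 and 267 CPM in EpCAM- libraries. Its libraries spread widely within each fraction, and the log2 difference of -0.19 had an interval of -0.62 to 0.24 (adjusted p = 0.452).

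The TspanC8 tetraspanins carry ADAM10 out of the endoplasmic reticulum and direct it to different substrates, including Notch receptors. Within this subgroup *Tspan14* rose, *Tspan33* and *Tspan15* fell, *Tspan5* and *Tspan17* were not called, and *Tspan10* had 0 counts in every library. *Tspan14* (ENSMUSG00000037824, chr14:40906445-40966807) was at 179, 174, 175 and 173 CPM in EpCAM+ libraries, with little spread, and at 142, 129, 125 and 110 CPM in EpCAM- libraries. The rise was 0.47 on the log2 scale (SE 0.08, adjusted p = 0.00144).

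*Tspan33* (ENSMUSG00000001763, chr6:29694222-29718559), known from erythroid progenitors and activated B cells, was at 28.5, 10.9, 13.4 and 24.2 CPM in EpCAM+ and at 42.5, 41.1, 72.7 and 104 CPM in EpCAM- libraries. The fractions did not overlap, and EpCAM- libraries 3 and 4 were above EpCAM- libraries 1 and 2. The fall was 3.39-fold, -1.76 on the log2 scale (SE 0.37, adjusted p = 0.00378). *Tspan15* (ENSMUSG00000037031, chr10:62185396-62231251), which directs ADAM10 to N-cadherin, was near the limit of detection, with 11, 1, 3 and 4 counts in EpCAM+ and 19, 19, 14 and 46 counts in EpCAM- libraries. Its log2 fold change of -2.53 (SE 0.64, adjusted p = 0.00974) became -3.39 without EpCAM+ replicate 1 and -1.99 without EpCAM- replicate 4, and passed the threshold in each of the 8 fits that left out a library.

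The summed level of the 10 erythroid markers was 1905, 2184, 4877 and 6627 CPM in EpCAM- libraries 1 to 4, and that of the 9 mast cell and basophil markers 453, 516, 770 and 581 CPM. Both sums were highest in EpCAM- libraries 3 and 4, as were *Tspan8* and *Tspan33*. The sum of the megakaryocyte and platelet markers, 212, 93.8, 267 and 310 CPM, was highest in the same libraries. That of the neutrophil and monocyte markers, 16481, 10789, 13464 and 10091 CPM, was not. *Tspan15*, at 1.19, 1.41, 0.956 and 3.38 CPM in EpCAM- libraries 1 to 4, was lowest in library 3. The erythroid list did not move as one, since 5 of its 8 tested genes were lower in EpCAM+ LSKs, *Hbb-bt* was higher, and *Hbb-bs* and *Hba-a2* were not called. The lineage stain used by the study includes TER119, MAC1 and GR1, a gate meant to remove mature erythroid and myeloid cells. The part of these cell types in the values of *Tspan8*, *Tspan33* and *Tspan15* was not tested. In sorted bulk RNA, fewer cells of a type and less RNA per cell cannot be told apart.

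*Tspan5* (ENSMUSG00000028152), which promotes Notch cleavage by ADAM10, was at 33.5 ± 5.26 CPM in EpCAM+ and 33.9 ± 3.43 CPM in EpCAM- libraries (SD, n = 4), a log2 difference of -0.02 with an interval of -0.30 to 0.26 (adjusted p = 0.919). *Tspan17* (ENSMUSG00000025875) was at 3.89 ± 0.764 and 3.79 ± 0.623 CPM, a log2 difference of 0.04 with an interval of -0.44 to 0.51 (adjusted p = 0.906). *Adam10* itself was at 137, 165, 140 and 144 CPM in EpCAM+ and at 154, 122, 132 and 153 CPM in EpCAM- libraries and was not called (0.07 on the log2 scale, adjusted p = 0.605). Per kilobase of exon, *Tspan14* made up 86.2% of the TspanC8 sum in EpCAM+ libraries (range 83.6 to 87.5) and 71.0% in EpCAM- libraries (range 60.6 to 77.3). *Tspan33* made up 4.79% (range 2.81 to 6.78) and 18.5% (range 11.8 to 29.2). The ranges did not overlap for either gene. From the deposited FPKM, which use other lengths, the shares of *Tspan14* were 74.8% and 57.4% and those of *Tspan33* 6.06% and 21.6%.

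**Figure D2:**
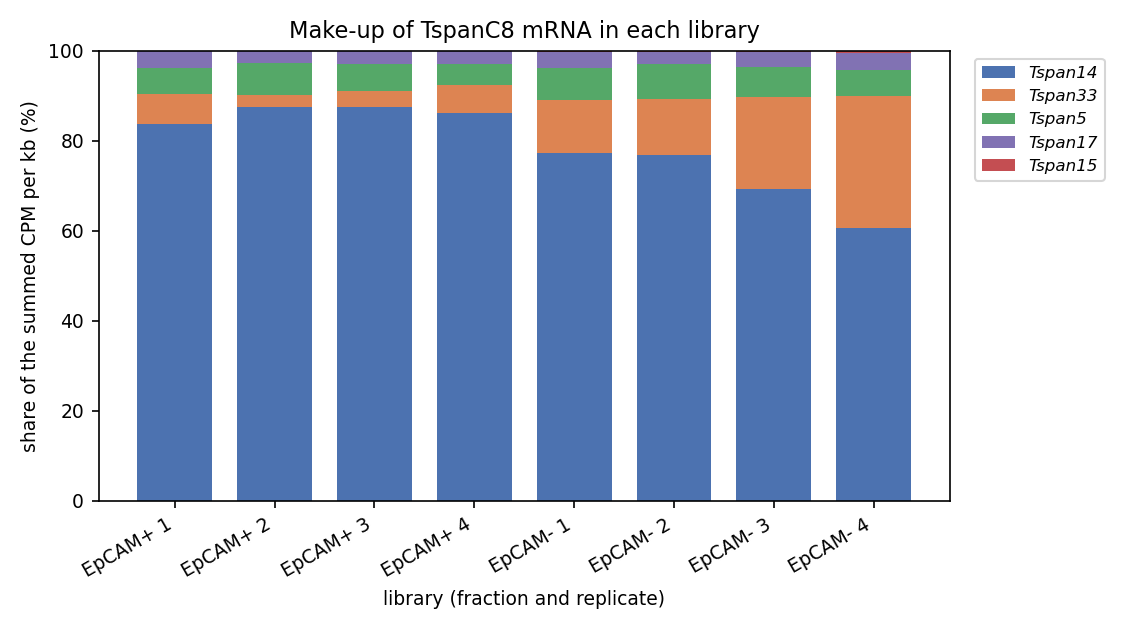
Share of each TspanC8 gene in the summed CPM per kilobase of the TspanC8 genes, in percent, as 1 stacked bar from 0 to 100 for each of the 8 libraries. *Tspan14* takes 83.6 to 87.5% of each EpCAM+ bar and 60.6 to 77.3% of each EpCAM- bar, *Tspan33* takes 2.81 to 6.78% and 11.8 to 29.2%, and *Tspan15* is barely visible.

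Among the 10 remaining family members, 5 were tested and all 5 were called, beside 42.6% of all tested genes. *Tspan13*, *Tspan9* and *Tspan3* were higher and *Tspan2* and *Tspan31* lower. *Tspan13* (ENSMUSG00000020577, chr12:36014557-36042500) was at 556, 603, 539 and 638 CPM in EpCAM+ libraries and at 410, 444, 385 and 406 CPM in EpCAM- libraries. The fractions did not overlap, and the 1.42-fold rise was 0.51 on the log2 scale (SE 0.08, adjusted p = 0.00101). *Tspan3* (ENSMUSG00000032324, chr9:56131725-56165477), which is needed for self-renewal of acute myeloid leukemia stem cells, was at 191, 192, 185 and 181 CPM in EpCAM+ and at 155, 157, 128 and 115 CPM in EpCAM- libraries. The libraries were separated, by 0.43 on the log2 scale (SE 0.10, adjusted p = 0.00668).

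*Tspan9* (ENSMUSG00000030352, chr6:127961396-128143594), a platelet tetraspanin found with collagen receptors, had 44, 46, 56 and 31 counts in EpCAM+ and 14, 8, 13 and 13 counts in EpCAM- libraries. All 4 EpCAM+ libraries were higher, at 2.01 to 3.13 CPM against 0.592 to 0.956 CPM, a 3.19-fold rise of 1.67 on the log2 scale (SE 0.27, 95% confidence interval 1.08 to 2.27, adjusted p = 0.00105). The summed level of 10 megakaryocyte and platelet markers was 142 to 390 CPM in EpCAM+ and 93.8 to 310 CPM in EpCAM- libraries, overlapping ranges, with 1 of 7 tested, *Gp9*, higher and *Gp6* at 0.

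*Tspan2* (ENSMUSG00000027858, chr3:102734529-102801513), best known from oligodendrocytes, was at 12.9, 12.5, 9.89 and 14.7 CPM in EpCAM+ and at 20.97, 25.2, 16.4 and 14.1 CPM in EpCAM- libraries. EpCAM- replicate 4 lay within the EpCAM+ range, and the log2 fold change was -0.62 (SE 0.19, adjusted p = 0.0240). The call was lost without EpCAM+ replicate 3 (-0.52, adjusted p = 0.0680), EpCAM- replicate 1 (-0.58, adjusted p = 0.0506) or EpCAM- replicate 2 (-0.47, adjusted p = 0.0614). *Tspan31* (ENSMUSG00000006736, chr10:127067280-127070264) was at 97.1, 100.4, 90.9 and 95.9 CPM in EpCAM+ and at 101, 138, 114 and 117 CPM in EpCAM- libraries. The libraries did not overlap, by a narrow margin, and the log2 fold change was -0.29 (SE 0.09, adjusted p = 0.0270). The call was lost without EpCAM+ replicate 3 (-0.27, adjusted p = 0.0749) or EpCAM+ replicate 4 (-0.29, adjusted p = 0.0532), and with scaling to the upper quartile (-0.21, adjusted p = 0.0980) or to library totals (-0.21, adjusted p = 0.0818). *Tspan31* shares 641 bases, 29.2% of its exons, with the cell cycle kinase gene *Cdk4* on the opposite strand, and *Cdk4*, at 830 and 1024 CPM in EpCAM+ and EpCAM- libraries, changed by -0.30 (SE 0.09, adjusted p = 0.0240).

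**Figure D3:**
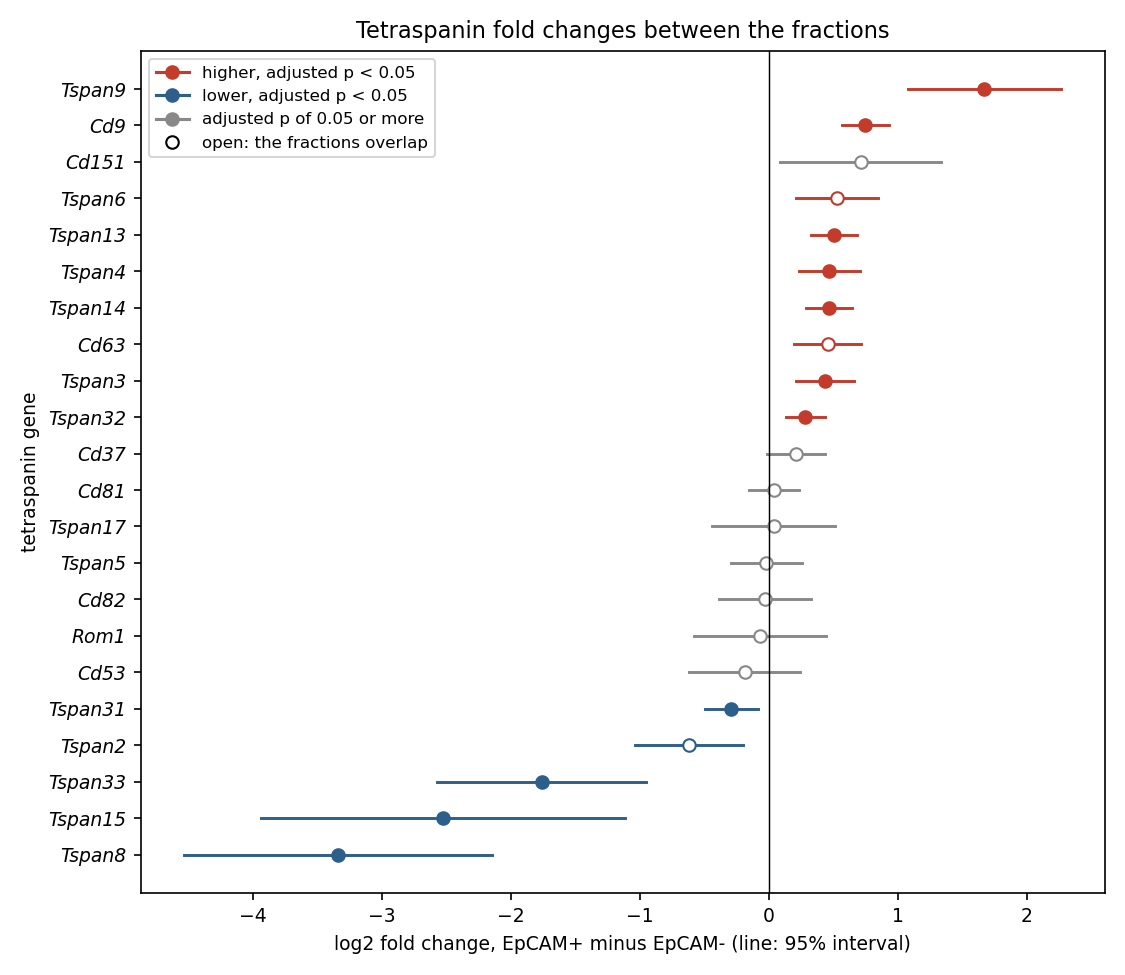
Log2 fold change, EpCAM+ minus EpCAM-, of each tested tetraspanin, ordered by size, with lines for the 95% confidence interval from the edgeR fit, color for the call at an adjusted p of 0.05, and open circles where the libraries of the fractions overlap. The 9 higher members lie between 0.28 and 1.67, and *Tspan8* at -3.34, *Tspan15* at -2.53 and *Tspan33* at -1.76 stand apart below.

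Of the 4 tetraspanins of bladder and eye, *Rom1* was read in every library and was tested, and the others were at or near 0. *Rom1* (ENSMUSG00000071648), which encodes a photoreceptor disc rim protein, was at 3.78 ± 0.761 CPM in EpCAM+ and 3.97 ± 0.861 CPM in EpCAM- libraries (SD, n = 4), and was not called (-0.07 on the log2 scale, interval -0.58 to 0.44, adjusted p = 0.830). The uroplakins *Upk1a* and *Upk1b*, which line the bladder, had 0 to 2 counts in EpCAM+ libraries, and 0 to 6 and 2 to 4 counts in EpCAM- libraries. *Tspan18*, an Orai1 partner, had 2 to 5 counts in EpCAM+ and 0 to 6 in EpCAM- libraries, and *Tspan7* had 1 to 6 and 0 to 4. *Tspan12*, a Norrin and Frizzled coreceptor, had 0 to 4 and 0 to 1, and the epithelial *Tspan1* 0 to 5 and 0. *Tspan10*, *Tspan11* and the photoreceptor gene *Prph2* had 0 counts in all 8 libraries, which allows up to 0.168 to 0.222 CPM in a library (3 counts on its TMM-scaled size, covering counting error only).

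Levels were compared between members only per kilobase of exon. In EpCAM+ libraries the order was *Tspan13* at 236, *Cd53* at 176, *Cd81* at 151, *Cd9* at 136, *Tspan4* at 122 and *Cd63* at 118 CPM per kilobase. In EpCAM- libraries it was *Cd53* at 200.2, *Tspan13* at 166, *Cd81* at 146, *Tspan4* at 88.3, *Cd63* at 85.8 and *Cd9* at 80.8 CPM per kilobase. *Cd9* stood in place 6 in EpCAM- and in place 4 in EpCAM+ libraries, and *Tspan13* and *Cd53* exchanged place 1. *Cd53* spread widely between libraries and was not called. Their shares of the family's summed CPM per kilobase were 18.5% ± 0.905 and 15.4% ± 0.488 for *Tspan13* and 13.8% ± 2.59 and 18.4% ± 3.60 for *Cd53* in EpCAM+ and EpCAM- libraries (SD, n = 4). The share of *Cd9* was 10.7% ± 0.793 and 7.49% ± 0.377. These places depend on the length used. The deposited FPKM put *Cd53* in place 7 in EpCAM+ and place 6 in EpCAM- libraries, *Cd9* in places 6 and 7, *Tspan13* in places 1 and 2, *Cd81* in places 2 and 1, *Cd63* in place 3 in both and *Tspan4* in places 4 and 5.

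Some members lie side by side in the genome (GRCm38). *Cd151* ends 3.77 kb before *Tspan4* on chromosome 7, and both had positive log2 differences, 0.71 and 0.47, with only that of *Tspan4* called. *Tspan32* and *Cd81* are 33.1 kb apart on the same chromosome, with *Tspan32* called higher and *Cd81* at 0.04. *Tspan9* lies 7.42 kb from *Tspan11* on chromosome 6, and *Tspan9* rose while *Tspan11* had no reads.

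The genes of proteins that tetraspanins bind or depend on, with the Notch targets *Hes1* and *Dtx1*, were taken as 6 lists of 72 genes, of which 59 were tested. Of these, 19 were higher in EpCAM+ LSKs (32.2%) and 6 lower (10.2%), beside 21.8% and 20.8% of all genes. In either direction 25 were called, 42.4% beside 42.6% of all genes. *Epcam*, the sorting marker, is counted among the 19, and the sort itself fixed its direction. The median log2 fold change of the 59 was 0.09. Blocking on replicate number, 23 partner genes were higher and 9 lower, beside 25.6% and 24.7% of all genes, 50.3% in all. *Cldn1*, *Cldn7*, *Itga3* and *Cx3cl1* were called higher and lay below the filter's level in at least 1 EpCAM- library, *Itga3* in all 4, so their passing was not independent of their difference. With at least 10 counts required in every library, the partner genes called higher were 15 in place of 19, the adhesion partners 3 in place of 5 and the integrins 2 in place of 3. Without that requirement, calls in either direction were 44.4% of the tested integrins, 54.5% of the adhesion partners and 66.7% of the CD81 partners. They were 55.6% of the ADAM list, 25% of the exosome list and 36.4% of the palmitoyltransferase and linker list. Over all tested genes the share was 42.6%.

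Among 9 tested partner integrins, *Itga3*, *Itgb4* and *Itga6*, all subunits of laminin receptors, were higher and *Itga4*, a fibronectin and VCAM-1 receptor subunit, was lower. *Itga3* was at 4.05, 3.97, 4.30 and 2.66 CPM in EpCAM+ and at 0.312, 0.148, 0.478 and 0.221 CPM in EpCAM- libraries, where it had 2 to 7 counts, a separated difference of 3.64 on the log2 scale (adjusted p = 0.000165). *Itgb4* was at 4.80 to 7.60 CPM against 1.03 to 2.50 CPM (1.95, adjusted p = 0.000633), and *Itga6* at 65.7 to 74.6 CPM against 48.1 to 58.5 CPM (0.40, adjusted p = 0.00373). *Itga4* was at 50.2 to 57.3 CPM against 59.9 to 81.1 CPM (-0.34, adjusted p = 0.0201), a call that was lost without EpCAM+ replicate 2 or EpCAM+ replicate 3 and with upper quartile scaling. *Itgb1*, the common beta subunit, was not called (0.03, adjusted p = 0.744).

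Among 11 tested adhesion partners, *Epcam*, *Cldn7*, *Cldn1*, *Cdh1* and *Icam1* were higher and *Bsg*, which encodes basigin, was lower. *Cldn7*, the claudin that binds EpCAM, was at 57.1, 10.5, 16.9 and 42.9 CPM in EpCAM+ and at 0.147 to 0.936 CPM in EpCAM- libraries (5.55, adjusted p = 0.000257). *Cldn1* was at 35.0, 2.66, 11.6 and 38.9 CPM against 0.0735 to 0.811 CPM (5.97, adjusted p = 0.000951), so both claudins were lowest in EpCAM+ replicate 2 and spread far more between EpCAM+ libraries than *Cd9* did. *Cdh1*, encoding E-cadherin, was at 8.22 to 13.2 CPM against 3.48 to 6.01 CPM (1.34, adjusted p = 0.00151), and *Icam1*, encoding a leukocyte integrin ligand, at 43.8 to 58.7 CPM against 14.0 to 27.5 CPM (1.22, adjusted p = 0.00103). *Bsg* was at 539 to 643 CPM against 735 to 923 CPM (-0.52, adjusted p = 0.00253). *Igsf8*, a direct partner of CD9 and CD81, was not called, and neither was *Cd44* (-0.13 and 0.02 on the log2 scale), while *Ptgfrn* was not tested.

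Of the 8 listed coreceptor partners of CD81, 3 were tested, and *Ifitm3* (0.70, adjusted p = 0.00862) and *Cd4* (1.01, adjusted p = 0.0404) were higher. The 9 tested genes of the ADAM list are of proteases, substrates of the TspanC8 complexes and the Notch target *Hes1*. Of them 4 were higher, *Notch4* (1.44, adjusted p = 0.0122), *Cx3cl1* (1.51, adjusted p = 0.0159), *Notch2* (0.62, adjusted p = 0.0194) and *Adam9* (0.41, adjusted p = 0.0406). *Adam17*, the other main shedding protease, was lower at 45.6 to 53.3 CPM against 63.1 to 73.9 CPM (-0.45, adjusted p = 0.00175). *Notch1* (0.09), *Il6ra* (-0.31), *Adam10* (0.07) and *Hes1* (0.54) were not called. Of 16 tested genes of multivesicular bodies and exosomes, *Pld2* (2.11, adjusted p = 0.000844), *Rab11a* (0.45, adjusted p = 0.00130) and *Rab27b* (0.63, adjusted p = 0.0354) were higher and *Flot2* was lower (-0.35, adjusted p = 0.0200). The *Flot2* call was lost without EpCAM+ replicate 3 or EpCAM+ replicate 4 and with scaling to the upper quartile or to library totals. *Sdcbp*, which encodes the CD63 adaptor syntenin, was not called (0.08). The *Hgs* entry used, ENSMUSG00000116045, had 0 counts in every library, and any other entry of that name was not looked at. The last list holds 11 genes of palmitoyltransferases, membrane linkers, kinases and adaptors. The kinase gene *Prkca* (0.60, adjusted p = 0.0142) and *Zdhhc2* (0.49, adjusted p = 0.0456) were higher, and *Zdhhc13* (-0.66, adjusted p = 0.00279) and *Rdx* (-0.25, adjusted p = 0.0103) were lower. With either of those scalings the counts of this list were 5 higher and 1 lower in place of 2 and 2. Leaving out 1 library at a time also changed the counts of higher genes. They were 1 to 3 for the CD81 partners, 2 to 4 for the ADAM list, 2 to 3 for the exosome list and 1 to 3 for the last list. The counts of lower genes were 0, 1, 0 to 2 and 2 in the same order.

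**Figure D4:**
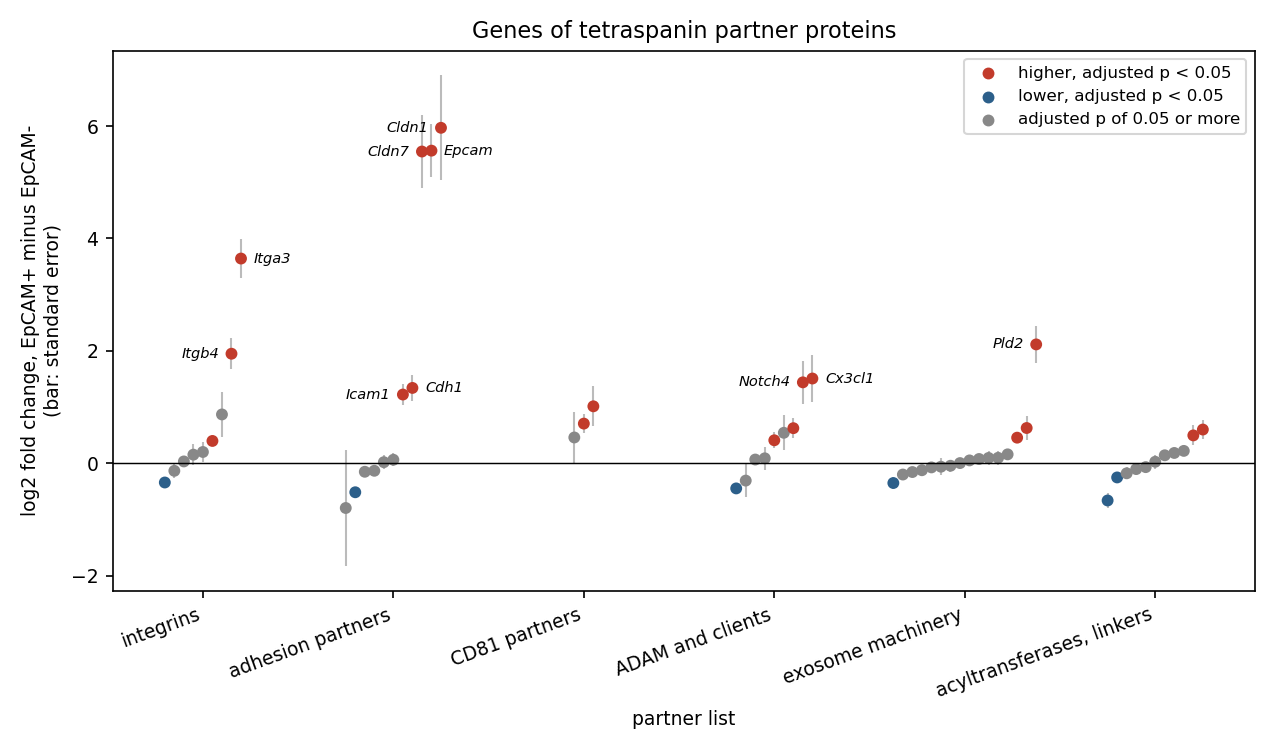
Log2 fold change, EpCAM+ minus EpCAM-, of the 59 tested partner genes in 6 lists, with bars of 1 standard error and color for the call at an adjusted p of 0.05. The names mark called genes far from 0. *Cldn1*, *Epcam*, *Cldn7* and *Itga3* lie at 3.64 or above, and 34 genes were not called.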

How the data were processed

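The 8 libraries, 4 for each sorted fraction, were made from low-input RNA amplified with the SMART-Seq v4 kit. Per the submitters' processing notes, reads were aligned to GRCm38.p6 with STAR 2.6.1d, counted with featureCounts 1.5.0-p3 and compared with DESeq2 1.20.0. The annotation release, the strand setting and the treatment of multimapping reads are not given in the sources used here. The authors deposited raw counts per gene, which were used for every test, and FPKM per library, which were used only as an alternative for levels within the family. The authors' columns with log2 fold changes and p-values of their own contrasts, overall and library by library, were not used.

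Counts were analysed in R 4.3.3 with edgeR 4.0.16: filterByExpr kept 13560 of 54532 genes, libraries were scaled by TMM, and the fractions were compared with the quasi-likelihood test (glmQLFit and glmQLFTest), two-sided, with Benjamini-Hochberg adjustment over all tested genes and a threshold of 0.05. Confidence intervals are at 95%. Levels are CPM on the TMM-scaled library size, and levels per kilobase divide by the exon length in the table. Library totals were 14114491 to 17073546 counts. On the TMM-scaled library sizes, 3 counts correspond to 0.168 to 0.222 CPM. Intervals and floors cover these libraries alone. The labels do not tie a number to a mouse, but libraries of the same number deviated from their group means together (correlations of 0.205 to 0.356 in 4 pairs, against -0.216 to 0.0396 in 12 other combinations), so the fit that blocked on replicate number is given where it changes a call. No library was a duplicate of another in its fraction (chi-square per degree of freedom 9.8 to 91.7 in 12 pairs). The code was tested on simulated data.

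The members and the role, partner and cell type marker lists were chosen with earlier results of these data known. Every called member is named with its values, every other tested member with its difference, and every filtered member with its counts. Of each partner list, *Epcam* and up to 4 called genes with the smallest adjusted p were named, and other partner genes were chosen after their values were seen. The marker lists covered the LSK gate, B, plasma, dendritic, T and NK cells, neutrophils and monocytes, mast cells and basophils, megakaryocytes, erythroid cells, eosinophils, epithelial cells, and endothelial and stromal cells. Some genes stand in more than 1 list (*Cldn7* and *Cdh1* as partners and epithelial markers, *Cd4* as partner and T cell marker, *Flt3* as gate and dendritic marker). Gene positions and lengths of 30 of 31 members equal those of GENCODE M21, with *Rom1* as the exception, and exon overlaps with other genes were found for 11 members. Promoter windows came from a RefSeq table. Alternatives were DESeq2 1.42.0, limma-trend 3.58.1, 3 other scalings, 3 other filters, a 2-fold minimum in the test, a block on replicate number, each library left out, and FPKM levels. A planned comparison of protein sequences was not made.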

Additional observations from a re-analysis of the deposited data

Results flagged for a closer look

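*Tspan17*, a TspanC8 member, was at 5.03 CPM in EpCAM+ replicate 1, while the other 3 EpCAM+ libraries were at 3.40 to 3.58 CPM. The gap to the nearest library is 0.893 of the range of the 4, above the 95% critical value of Dixon's test for 4 samples. It was 1 such case in 44 groups of 4 libraries examined, and chance gives about 1 in 20. Without this library the log2 difference of *Tspan17* was -0.12, and it was not called in any fit.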

How the results depend on the processing

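The same 14 members were called with DESeq2, limma-trend, DESeq2 size factors, a filter of at least 1 count in any library, and protein-coding genes alone. A filter of at least 10 counts in every library left 20 members tested and 12 called, without *Tspan9* and *Tspan15*. With scaling to the upper quartile or to library totals, which moved the median of all genes from 0.02 to 0.11 on the log2 scale, *Tspan31* was lost and *Cd151* (0.80, adjusted p = 0.0438 and 0.0379) and *Cd37* (0.30 and 0.29, adjusted p = 0.0394 and 0.0498) were gained, and the share of all calls that were higher went from 51.2% to 63.6% and 62.7%. Partner genes called lower were then 3 with the upper quartile. Against a 2-fold change the counts were 0 tetraspanins higher and 1 lower, and 6 partner genes higher and 0 lower. With the replicate number as a block, 16 members were called, 11 higher and 5 lower, with *Cd151* and *Cd37* gained and no other call changed, while calls over all genes rose from 5779 to 6818. Leaving out 1 library at a time, 9 to 10 tetraspanins were higher and 3 to 5 lower, with 3 lower without EpCAM+ replicate 3, where *Tspan2* and *Tspan31* were lost, and 15 to 19 partner genes were higher and 4 to 7 lower. *Cd151* was called without EpCAM+ replicate 3 (0.88, adjusted p = 0.0318) or EpCAM- replicate 4 (0.91, adjusted p = 0.0340).

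Sign changes concerned members that were not called. They were *Cd82* (0.054), *Tspan5* (0.067) and *Rom1* (0.014) with the upper quartile, the same genes with library totals (0.051, 0.067 and 0.017), and *Tspan5* (0.0069) with at least 10 counts in every library. With a library left out, the ranges were -0.16 to 0.11 for *Cd82*, -0.10 to 0.076 for *Tspan5*, -0.12 to 0.095 for *Tspan17*, -0.21 to 0.024 for *Rom1* and -0.017 to 0.10 for *Cd81*. From FPKM, the share of *Tspan13* was 16.6% in EpCAM+ and 14.0% in EpCAM- libraries and that of *Cd53* 5.69% and 7.77%. FPKM carry other gene lengths, with a ratio to the table's length of 1 to 4.16 over 20 members. The cause of the other changes was not tested. Counts were low for *Tspan15*, with 1 to 46 in a library, and for the 9 untested members, with at most 6.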
